A study of Mus musculus with 4 samples.

Results

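Chemokines and their receptors were followed in reconstituted mouse ovaries (rOvaries) from recipients that drank INK128, an inhibitor of the mTOR kinase, and from untreated recipients. Every gene symbol beginning with Ccl, Cxcl, Ccr, Cxcr, Xcl or Ackr and continuing with a digit was taken, which gave 60 of the 54021 symbols in the count table. They comprised 39 ligand symbols, 17 typical receptors and 4 atypical receptors. With a limit of 1 CPM (counts scaled to the size of the library) on the mean over the 4 libraries, 31 of the 60 were detected and entered the comparison between groups, and 29 lay below it.

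The rOvaries were aggregates of primordial germ cells with somatic cells of fetal gonads, stated to be female, grafted under the kidney capsule and collected 1 month after transplantation. Their donors came from crosses of C57BL/6 mice with C57BL/6 mice that carry GFP under an actin promoter, so the grafts were not telomerase deficient by design. The recipients of both groups were ovariectomized, immunocompetent, second-generation Terc-/- females on a C57BL/6 background, which lack the telomerase RNA, with an average age of 10 weeks. The INK128 group (libraries INK128 replicates 1 and 2) received 0.75 µM of INK128 per g in the drinking water and the Control group (Control replicates 1 and 3) received none. This is the dose as the labels state it, and the methods state it in a different unit. A recipient carried more than 1 aggregate in some cases, and nothing states that the libraries of a group came from separate animals, so that the p-values below measure the spread between these libraries, which may be technical. The grafts could hold blood vessels, leukocytes and adjoining kidney of the host beside donor germ and gonadal cells. In such bulk tissue, fewer cells of a type and less RNA per cell cannot be told apart.

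Chemokines are small secreted proteins that direct the migration of leukocytes and other cells, and they are classed by the spacing of conserved cysteines as CC, CXC or C ligands. Typical receptors couple to inhibitory G proteins, whereas atypical receptors bind and take up or transport ligands without this coupling. In the gonad, Cxcl12 and its receptor Cxcr4 are known for guiding primordial germ cells, and other chemokines bring macrophages and lymphocytes into the ovary around ovulation and regression of the corpus luteum.

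The libraries held 19130209 to 23029089 counted reads, and 3 counts, taken as the detection floor, corresponded to 0.124 to 0.164 CPM. All CPM values below were scaled with TMM normalization factors, except where library totals are named. The INK128 libraries differed by more than 2-fold in 2.25% of the 17631 genes tested and the controls in 20.9%. Of the 31 chemokine system genes, 1 and 12 did so. Control replicate 3 had 19.6 CPM over 8 oocyte marker genes, against 619 to 924 CPM in the other libraries, and Control replicate 1 held 1021 counts of 4 Y-linked genes, against 0 to 2, which goes against the stated sex of the donors. The 8 granulosa cell markers summed to 3577 CPM or more in every library, and these sums overlapped between the groups. Of the 8, 4 were higher and 0 lower in both INK128 libraries. Of the 8 oocyte markers, 8 were higher in both. Kidney markers summed to 63.7 and 147 CPM with INK128 and to 654 and 1298 CPM in controls, with 12 of 14 lower and 1 higher in both INK128 libraries. Since the controls stood apart from each other, fold changes against each control alone are given beside the results that rest on them.

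In all 4 libraries most ligand counts came from Cxcl12 and Cxcl14, 2 ligands made by stromal and epithelial cells in the absence of inflammation. Together they provided 83.8% (exact 95% binomial interval, 83.1 to 84.5%) and 80.4% (79.7 to 81.1%) of the ligand counts in INK128 replicates 1 and 2. In Control replicates 1 and 3 the shares were 57.8% (56.6 to 59%) and 55.4% (54.5 to 56.4%). The shares were thus higher in both INK128 libraries, and the intervals cover counting error only. With 2 libraries a group, the smallest p-value that an exact two-sided permutation test of this share can give is 0.333. Cxcl12 and Cxcl14 summed to 457 and 443 CPM with INK128 and to 167 and 259 CPM in controls. The remaining ligands went the other way, with 88.4 and 108 CPM with INK128 against 122 and 209 CPM without it. Typical receptors summed to 48.9 and 44.7 CPM with INK128 and to 53 and 89.8 CPM in controls. Atypical receptors summed to 39.4 and 45.5 CPM with INK128 and to 64.4 and 58.2 CPM in controls.

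**Figure D1:**
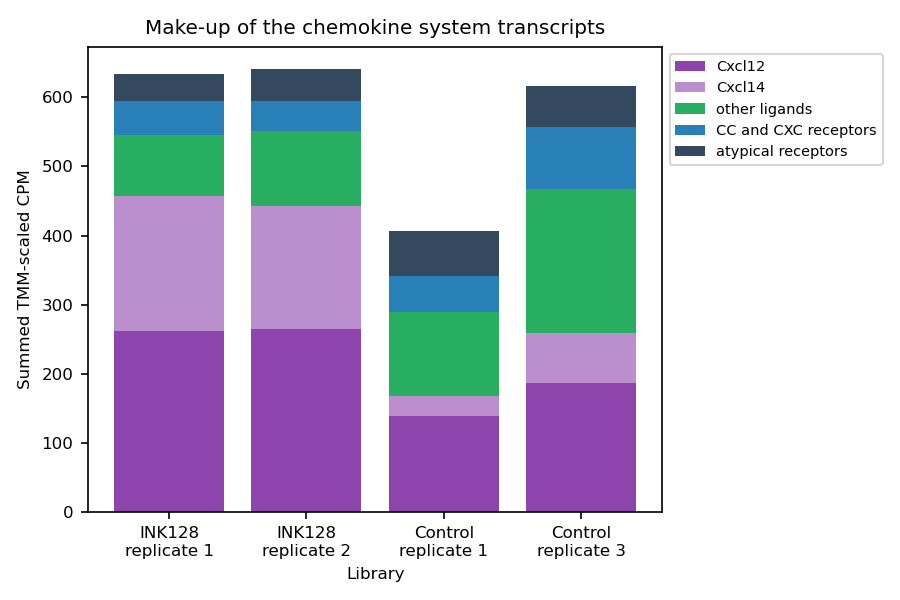
Summed TMM-scaled CPM of the 60 genes in each library, split into Cxcl12, Cxcl14, the other ligands, the CC and CXC receptors (typical receptors) and the atypical receptors. Cxcl12 and Cxcl14 together reach 457 and 443 CPM in the INK128 libraries and 167 and 259 CPM in the controls, and the total is lowest in Control replicate 1 (406 CPM).

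The limit was set on the mean over both groups, so a gene could be detected through its values in 1 group. Ackr2, Ccl22 and Cxcl1 had INK128 means below 1 CPM (0.18, 0.671 and 0.867 CPM) and are counted as lower here. Ccl19-ps3 had a Control mean below 1 CPM (0.95 CPM). The counts and medians of this paragraph therefore depend on the limit. Of the 31 detected genes, 14 (45.2%) had lower values in both INK128 libraries than in both controls, against 33% of all genes tested. The opposite order was found for 6 (19.4%), against 33.1% of all genes, and the groups overlapped for 11. Scaled to library totals, 17 were lower and 6 higher (40.5% and 25.9% of all genes), and with offsets for exon length 19 and 6 (30.5% and 30.9%). Of 19 detected ligands, 7 were lower and 4 higher. Of 8 typical receptors, 4 were lower and 1 higher, and of 4 atypical receptors 3 were lower and 1 higher. The median log2 fold change of INK128 over Control was -0.62 for the 31 genes and -0.04 for all genes. Against Control replicate 3 alone the median of the 31 genes was -1.01, and against Control replicate 1 alone it was -0.03. Offsets for exon length gave -0.97, against -0.02 for all genes. Control replicate 3 held the highest of the 4 values for 19 of the 31 genes (61.3%), against 30.7% of all genes, and Control replicate 1 for 5 (16.1%), against 25.4%.

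None of the 31 genes passed edgeR's quasi-likelihood test at an adjusted p below 0.05 with a fold change above 1.5, and neither did any of the 17631 genes (0% lower and 0% higher). The lowest adjusted p over all genes was 0.0519, and 1653 genes had an adjusted p below 0.06. Several genes shared the value of 0.0519, among them Ackr2, Rarres2, Kdr and Lyve1, so it does not rank them. At an unadjusted p below 0.05, 7 of the 31 were lower (22.6%, against 18.2% of all genes) and 4 higher (12.9%, against 15.5%). DESeq2 on the same counts called 6 lower (19.4%, against 13.6% of all genes) and 3 higher (9.68%, against 10.2%). These included Ackr2, Ackr4, Ccl22, Ccl8 and Cxcl9 on the lower side and Ccl27a, Cxcl12 and Cxcl14 on the higher side. limma voom called none of the 31, with 5 lower and 3 higher at an unadjusted p below 0.05 (14.3% and 15.7% of all genes).

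The calls were also counted under other settings. At an adjusted p limit of 0.1, edgeR called 5 lower (12% of all genes) and 3 higher (10.4% of all genes). Scaling to library totals called Ackr2 alone (2.64% of all genes lower), as did the filter of CPM above 1 in at least 2 libraries (3.08% of all genes lower and 2.54% higher). Of the 9 genes with a mean CPM above 10, none was called (3.72% of all genes lower and 3.69% higher). Without Control replicate 1, 14 were lower and 2 higher (24% and 22.1% of all genes), and without Control replicate 3, 9 were lower and 6 higher (22.3% and 19.8%). Those fits assume the lone control to vary like the INK128 libraries, which differed little from each other.

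**Figure D2:**
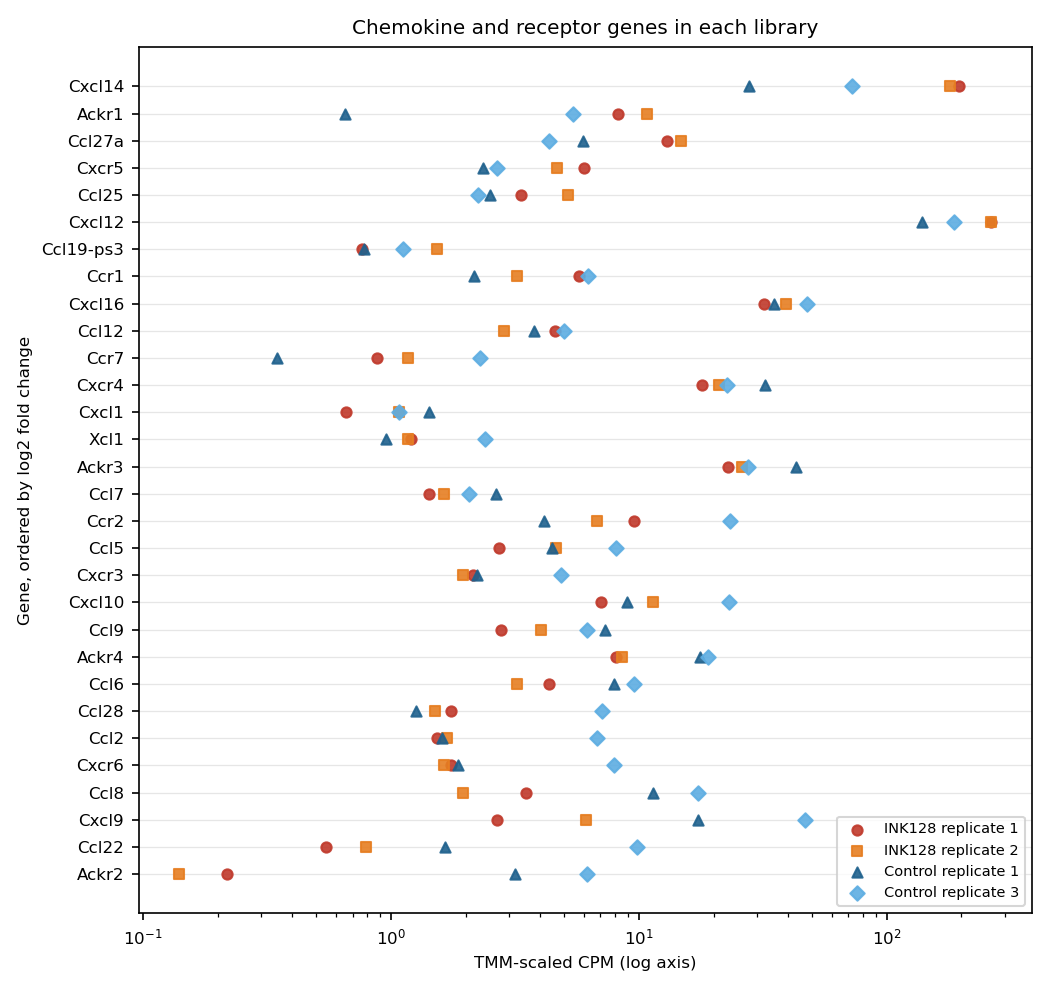
TMM-scaled CPM (log axis) of 30 detected genes in each of the 4 libraries, ordered by log2 fold change, 1 symbol per library. The 2 INK128 symbols lie to the left of both control symbols for 13 of these genes and to the right for 6.

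**Figure D3:**
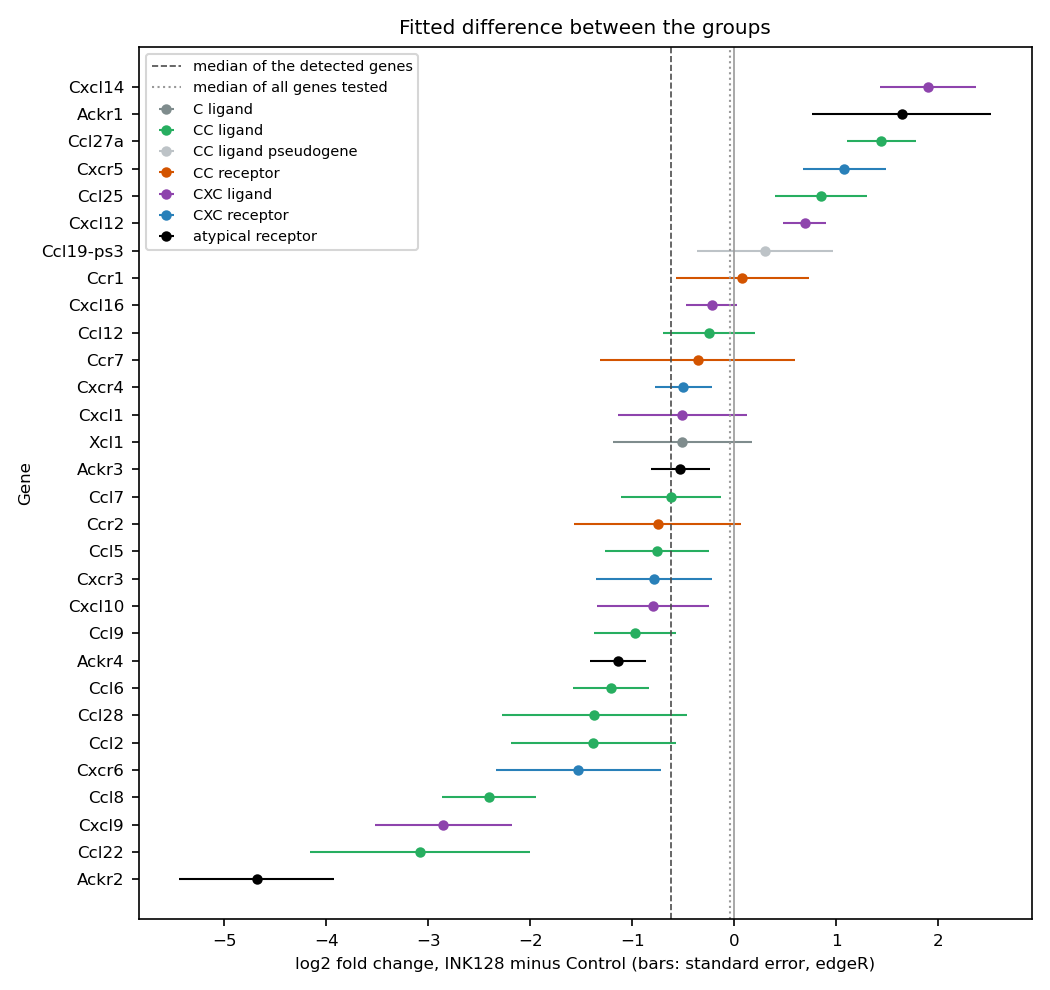
Log2 fold change of INK128 over Control for 30 detected genes (points) with the standard error of the edgeR fit (bars), coloured by class. The dashed line marks the median of the 31 detected genes (-0.62) and the dotted line the median of all genes tested (-0.04).

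The promoters of 6 genes are shown, chosen among the ligands and atypical receptors with high levels or large differences, with Cxcl10 as the neighbour of Cxcl9. Each is the 250 bases before the start of transcription in RefSeq (build GRCm38.p6), written 5′ to 3′ on the strand of the gene. Capitals mark matches, on either strand, to the NF-kB consensus, the interferon-stimulated response element (ISRE, written GAAA, any 2 bases, GAAA), the STAT element (GAS, TTCNNNGAA), the TATA box (TATAAA) and the CCAAT box (CCAAT), and overlapping matches were merged.
Cxcl12, chr6:117168285-117168534, plus strand: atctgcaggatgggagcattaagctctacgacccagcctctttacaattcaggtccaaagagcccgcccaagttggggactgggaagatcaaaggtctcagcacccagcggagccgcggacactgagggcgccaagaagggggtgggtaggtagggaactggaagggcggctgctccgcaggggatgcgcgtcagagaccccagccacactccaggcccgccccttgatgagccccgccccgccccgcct
Cxcl14, chr13:56296552-56296801, minus strand: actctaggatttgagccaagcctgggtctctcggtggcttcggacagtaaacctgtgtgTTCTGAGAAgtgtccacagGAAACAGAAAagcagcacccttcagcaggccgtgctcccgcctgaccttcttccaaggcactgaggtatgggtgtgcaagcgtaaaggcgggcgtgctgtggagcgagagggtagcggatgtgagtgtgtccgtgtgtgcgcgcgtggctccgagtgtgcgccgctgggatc
Cxcl9, chr5:92328080-92328329, minus strand: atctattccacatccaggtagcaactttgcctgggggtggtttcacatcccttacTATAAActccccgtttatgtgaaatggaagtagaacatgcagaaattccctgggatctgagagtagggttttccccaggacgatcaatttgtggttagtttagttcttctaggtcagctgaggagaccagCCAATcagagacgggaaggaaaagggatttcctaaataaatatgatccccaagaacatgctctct
Cxcl10, chr5:92348890-92349139, minus strand: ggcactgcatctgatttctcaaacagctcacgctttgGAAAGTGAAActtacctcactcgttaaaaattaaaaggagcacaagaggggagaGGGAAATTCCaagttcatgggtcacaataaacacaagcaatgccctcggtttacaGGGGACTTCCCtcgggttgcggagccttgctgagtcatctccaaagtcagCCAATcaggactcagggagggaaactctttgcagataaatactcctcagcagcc
Ccl8, chr11:82114935-82115184, plus strand: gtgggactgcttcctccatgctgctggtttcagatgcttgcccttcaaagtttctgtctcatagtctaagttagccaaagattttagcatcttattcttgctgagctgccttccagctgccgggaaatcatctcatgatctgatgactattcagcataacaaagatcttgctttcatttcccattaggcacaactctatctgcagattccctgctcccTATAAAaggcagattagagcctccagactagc
Ackr2, chr9:121898105-121898354, plus strand: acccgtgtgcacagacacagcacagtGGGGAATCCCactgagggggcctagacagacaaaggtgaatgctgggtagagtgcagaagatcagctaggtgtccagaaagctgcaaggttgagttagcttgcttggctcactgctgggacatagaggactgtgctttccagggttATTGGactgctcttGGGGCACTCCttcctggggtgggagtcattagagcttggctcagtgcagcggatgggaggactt

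The Cxcl12 window held no match to these 5 motifs. Neither did the window of Ccl22, which is not shown although its log2 fold change (-3.08) was larger in size than those of Cxcl9 and Ccl8. The Cxcl14 window held an ISRE and a GAS match, starting at positions -172 and -191 from the start of transcription. The Cxcl10 window held an ISRE match, a CCAAT box and 3 matches to the NF-kB consensus, of which 2 overlap each other, whereas the Cxcl9 window held a TATA and a CCAAT box. Windows were found for 23 of the 31 genes. The NF-kB consensus was present in 5 of the 23 (Ackr2, Ccl9, Ccr1, Cxcl1 and Cxcl10), against 7.25% of all 32851 windows in the table, and an ISRE in Cxcl10 and Cxcl14, against 2.98%. A TATA box was present in 7 of the 23, against 12.4% of all windows. A CCAAT box was present in 6, against 33.8%, and a GAS in Cxcl14 alone, against 7.02%. These matches describe letters in the windows and not sites bound in these tissues.

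Among the CXC ligands, Cxcl12 had the highest level per gene and Cxcl14 the highest level per kb of exon, with means of 26 and 64.9 CPM per kb. Cxcl12 (chromosome 6, 117168535 to 117181367, plus strand, GRCm38) was measured at 262 and 264 CPM with INK128 and at 139 and 187 CPM in controls. The mean was 263 ± 1.56 CPM (SD, n = 2) against 163 ± 34 CPM (SD, n = 2). Both INK128 libraries lay above both controls, by a fitted log2 fold change of 0.69 (SE 0.21, edgeR adjusted p = 0.0983), which was 0.49 against Control replicate 3 alone and 0.92 against Control replicate 1 alone.

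Cxcl14 (chromosome 13, 56288643 to 56296551, minus strand), a ligand of epithelium and stroma whose receptor is not settled, was measured at 195 and 179 CPM with INK128 and at 27.9 and 72.4 CPM in controls. Its mean was 187 ± 11.4 CPM (SD, n = 2) against 50.2 ± 31.5 CPM (SD, n = 2). The groups did not overlap, although the controls differed from each other by more than 2-fold, and the log2 fold change was 1.90 (SE 0.47, edgeR adjusted p = 0.0736). It was 1.37 against Control replicate 3 alone and 2.75 against Control replicate 1 alone. Summed theca and stroma markers were 10543 and 11160 CPM with INK128 and 6311 and 13947 CPM in controls. These sums overlapped between the groups, with the steroidogenic genes Cyp11a1 and Hsd3b1 highest in Control replicate 3 (3961 and 4137 CPM). Of the 8 markers, 4 were higher and 0 lower in both INK128 libraries, namely Cyp17a1 and the stromal matrix genes Lum, Dcn and Col1a1. The others overlapped, with log2 fold changes of -1.63 for Star, -0.96 for Cyp11a1, 0.08 for Hsd3b1 and 0.31 for Pdgfra. Star was measured at 137 and 171 CPM with INK128 and at 171 and 781 CPM in controls. Lum was measured at 957 and 965 CPM with INK128 and at 289 and 504 CPM in controls. The part of these cells, and of the granulosa cells and oocytes above, in the values of Cxcl12 and Cxcl14 was not tested.

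The receptors of Cxcl12 did not follow its direction. Cxcr4, its signalling receptor, was measured at 17.9 and 21 CPM with INK128 and at 32.4 and 22.7 CPM in controls. The fitted log2 fold change was -0.50 (SE 0.28, edgeR adjusted p = 0.265). Ackr3, the atypical receptor that removes Cxcl12, was measured at 22.9 and 26 CPM with INK128 and at 42.9 and 27.6 CPM in controls, a log2 fold change of -0.53 (SE 0.29, edgeR adjusted p = 0.26). Both receptors were lower in both INK128 libraries, with most of the distance to Control replicate 1. Against Control replicate 3 alone the log2 fold changes were -0.22 and -0.17.

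The ligands of Cxcr3, which are induced by interferon gamma and attract activated T cells and NK cells, are neighbours on chromosome 5 between 92321347 and 92365485. Cxcl9 was measured at 2.68 and 6.13 CPM with INK128 and at 17.3 and 46.8 CPM in controls, with means of 4.41 ± 2.43 CPM (SD, n = 2) and 32 ± 20.9 CPM (SD, n = 2). The groups did not overlap, and the log2 fold change was -2.85 (SE 0.67, edgeR adjusted p = 0.0676), with -3.39 against Control replicate 3 alone and -1.95 against Control replicate 1 alone. Cxcl10 was measured at 7.01 and 11.4 CPM with INK128 and at 8.95 and 23 CPM in controls. Its groups overlapped, and the log2 fold change of -0.80 (SE 0.55, edgeR adjusted p = 0.352) was -1.32 and 0.04 against Control replicates 3 and 1 alone. On the other strand, 133 exonic bases (5.91%) are shared with Art3, which had the same log2 fold change of -0.80 (6.68 and 7.25 CPM with INK128, 12.6 and 11.7 CPM in controls), and reads there may belong to either gene. Cxcl11 had 3 and 2 counts with INK128 and 2 counts in each control, at or below the floor. Cxcr3 itself had a log2 fold change of -0.79, which was -1.24 against Control replicate 3 alone and -0.11 against Control replicate 1 alone.

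Of the 9 T cell markers that passed the limit on the mean, 6 were lower in both INK128 libraries, and the median over the 9 was -1.30. The 10 markers summed to 15.9 and 17.2 CPM with INK128 and to 23.5 and 72.9 CPM in Control replicates 1 and 3. NK cell markers summed to 4.16 and 5.57 CPM with INK128 and to 4.21 and 15 CPM in controls. Lymphocyte markers were therefore highest in Control replicate 3, as Cxcl9, Cxcl10 and Cxcr3 were, and their part in these values was not tested.

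Cxcl16, a membrane-bound ligand that also takes up oxidized lipoproteins, had the next highest mean CPM, with 32 and 39.3 CPM in INK128 and 35.2 and 47.8 CPM in control libraries. The groups overlapped, at a log2 fold change of -0.22 (SE 0.25, edgeR adjusted p = 0.56). A stretch of 552 exonic bases (18.3% of Cxcl16) is shared with Zmynd15 on the other strand, so reads there may belong to either gene. Cxcr6, the receptor for Cxcl16 on T and NK cells, was measured at 1.75 and 1.64 CPM with INK128 and at 1.87 and 7.91 CPM in controls. The fitted log2 fold change of -1.53 (SE 0.81, edgeR adjusted p = 0.243) came to -0.14 against Control replicate 1 alone. Cxcl1, which attracts neutrophils, had a log2 fold change of -0.51, with both INK128 values below both controls but INK128 replicate 2 and Control replicate 3 equal at 1.08 CPM after rounding. Its receptor Cxcr2 had 0 to 4 counts.

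Among the CC ligands that attract monocytes, Ccl8 stood out by its level per kb, a mean of 16.7 CPM per kb, next after Cxcl14 and Cxcl12. Ccl8 (chromosome 11, 82115185 to 82116799, plus strand) was measured at 3.51 and 1.96 CPM with INK128 and at 11.4 and 17.3 CPM in controls. The mean was 2.74 ± 1.09 CPM (SD, n = 2) against 14.3 ± 4.2 CPM (SD, n = 2). The groups did not overlap, and the log2 fold change was -2.40 (SE 0.46, edgeR adjusted p = 0.0566), a 5.28-fold difference that was -2.67 and -2.07 on the log2 scale against Control replicates 3 and 1 alone. Its neighbours within the same cluster (82035571 to 82305690) differed less. Ccl2, Ccl7 and Ccl12, ligands of Ccr2, had log2 fold changes of -1.38, -0.62 and -0.25, and only Ccl7 of the 3 had groups that did not overlap. For Ccl2, values were 1.53 and 1.68 CPM with INK128 and 1.61 and 6.75 CPM in controls, so that the difference rested on Control replicate 3 (0.00 against Control replicate 1 alone).

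A second cluster on chromosome 11 (83525778 to 83664683) holds Ccl5, Ccl9 and Ccl6 among the detected genes. Ccl6 and Ccl9, myeloid cell ligands of Ccr1 in rodents, were lower in both INK128 libraries, with log2 fold changes of -1.21 (edgeR adjusted p = 0.102) and -0.97 (adjusted p = 0.164). Ccl5, a product of T and NK cells, had -0.76 with overlapping groups (-1.12 and -0.27 against Control replicates 3 and 1 alone). All 3 had negative values, as had the 4 detected genes of the first cluster (-2.40 to -0.25).

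Ccl22, a dendritic cell and macrophage product that attracts regulatory and Th2 cells through Ccr4, was measured at 0.548 and 0.795 CPM with INK128 and at 1.65 and 9.86 CPM in controls. The groups did not overlap, and the log2 fold change was -3.08 (SE 1.08, edgeR adjusted p = 0.127). It rested largely on Control replicate 3 (-3.85) and was -1.27 against Control replicate 1 alone. Ccr4 was below the limit, with 0 counts in both INK128 libraries and 2 and 21 counts in controls. Ccl28, a mucosal ligand of Ccr10, had a log2 fold change of -1.37 that was 0.36 against Control replicate 1 alone.

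Ccl27a and Ccl25 were the CC ligands with higher values in both INK128 libraries. Ccl27a, a skin ligand of Ccr10, was measured at 13 and 14.8 CPM with INK128 and at 5.95 and 4.35 CPM in controls. The fitted log2 fold change was 1.44 (SE 0.34, edgeR adjusted p = 0.0674), with 1.68 and 1.23 against Control replicates 3 and 1 alone. Reads of Ccl27a may be shared with its near-identical copy Ccl27b, which had 0 or 1 counts. The gene also meets Il11ra1, which had the same log2 fold change of 1.44 (182 and 185 CPM with INK128, 67.5 and 67.2 CPM in controls), over 8 exonic bases on the other strand. Because the strand setting of the counting is not stated, reads over those bases may belong to either gene. Ccl25, a thymic and intestinal ligand of Ccr9, was measured at 3.34 and 5.19 CPM with INK128 and at 2.52 and 2.24 CPM in controls, a log2 fold change of 0.85 (SE 0.45, edgeR adjusted p = 0.249). Its exons share 204 bases with Elavl1 on the other strand. Xcl1, the C ligand of lymphocytes, had -0.51 (-1.01 and 0.31 against Control replicates 3 and 1 alone) and Ccl19-ps3, a pseudogene copy, 0.30, both with overlapping groups. Xcl1 shares 98 exonic bases (18.7%) with Gm20743 on the other strand.

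Among the CC receptors, Ccr2 of monocytes was measured at 9.53 and 6.78 CPM with INK128 and at 4.13 and 23.2 CPM in controls. Both INK128 values lay between the controls, and the log2 fold change of -0.75 was -1.51 against Control replicate 3 alone and 0.98 against Control replicate 1 alone. Ccr1 had 0.08 and Ccr7, the lymph node homing receptor, -0.36, with overlapping groups. Against Control replicates 3 and 1 alone Ccr1 had -0.49 and 1.03, and Ccr7 had -1.14 and 1.55.

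The 13 macrophage markers summed to 468 and 425 CPM with INK128 and to 673 and 782 CPM in controls. Of these, 10 were lower in both INK128 libraries, with a median log2 fold change of -0.66. Ccl8, Ccl6 and Ccl9 were likewise lower in both INK128 libraries, whereas Ccr2 overlapped, and the part of these cells in these results was not tested.

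Cxcr5, the B cell follicle receptor, was the only detected typical receptor with higher values in both INK128 libraries. It was measured at 6.03 and 4.68 CPM with INK128 and at 2.35 and 2.69 CPM in controls, a log2 fold change of 1.08 (SE 0.41, edgeR adjusted p = 0.144). Markers of B and plasma cells summed to 11.3 and 5.19 CPM with INK128 and to 16.4 and 30 CPM in controls, and without Jchain they overlapped (5.15 and 2.99 CPM against 3.61 and 6.83 CPM). On the other strand, 110 exonic bases of Cxcr5 are shared with Bcl9l. Cxcl13, the ligand of Cxcr5, lay just below the limit at a mean of 0.976 CPM on library totals.

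The largest difference among the 31 genes was that of Ackr2, the atypical receptor that takes up inflammatory CC ligands, among them Ccl2, Ccl5 and Ccl22, and is known from lymphatic endothelium. Ackr2 (chromosome 9, 121898355 to 121911074, plus strand) had 4 and 3 counts (0.219 and 0.14 CPM) with INK128 and 73 and 149 counts (3.17 and 6.17 CPM) in controls. Both INK128 values were close to the floor and the groups were far apart, with a log2 fold change of -4.68 (SE 0.76, edgeR adjusted p = 0.0519). On the pooled counts, 7 against 222, the control level was 26.7 times the INK128 level (exact 95% interval 12.7 to 67.1, counting error only). The log2 fold change was -5.08 and -4.12 against Control replicates 3 and 1 alone.

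The 5 lymphatic endothelial markers summed to 116 and 106 CPM with INK128 and to 288 and 281 CPM in controls. Of these, 4 were lower in both INK128 libraries, with a median log2 fold change of -3.30. Pdpn overlapped (96.7 and 88.4 CPM with INK128, 155 and 57.7 CPM in controls) and made up most of the INK128 sums. Lyve1, which defines this endothelium together with Prox1, had 3.62 and 3.65 CPM against 58.9 and 69.5 CPM. Prox1 had 1.37 and 0.701 CPM against 10.8 and 24.9 CPM. The kidney markers given above were lower in the same libraries, and the part of either list in the value of Ackr2 was not tested. Blood endothelial markers summed to 416 and 447 CPM with INK128 and to 492 and 658 CPM in controls, with 2 of 7 lower and 1 higher in both INK128 libraries. Without Kdr (57.1 and 51.1 CPM against 163 and 140 CPM) the sums overlapped, at 359 and 395 CPM against 328 and 519 CPM.

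Ackr4, which takes up Ccl19, Ccl21 and Ccl25, was measured at 8.11 and 8.51 CPM with INK128 and at 17.7 and 19 CPM in controls. The mean was 8.31 ± 0.285 CPM (SD, n = 2) against 18.3 ± 0.884 CPM (SD, n = 2). This was a gene on which the controls differed little, and its log2 fold change of -1.14 (SE 0.27, edgeR adjusted p = 0.0678) was -1.19 and -1.09 against Control replicates 3 and 1 alone. Acad11, with which Ackr4 shares 479 exonic bases on opposite strands (8.9%), had a log2 fold change of -1.12. Ackr1, which transports ligands across venular endothelium and binds them on red cells, had the opposite order, with 8.22 and 10.8 CPM with INK128 and 0.652 and 5.43 CPM in controls. The fitted log2 fold change was 1.64 (SE 0.88, edgeR adjusted p = 0.249), which was 0.81 against Control replicate 3 alone and 3.86 against Control replicate 1 alone. Erythroid markers summed to 99.4 and 92.9 CPM with INK128 and to 21.8 and 55.7 CPM in controls, with 3 globin genes of the 5 markers higher in both INK128 libraries, Hbb-bt overlapping and Alas2 lower (2.03 and 1.36 CPM against 10.9 and 2.28 CPM). Ackr1 also shares 361 exonic bases (25.7%) with Cadm3 on the same strand. Cadm3 was measured at 36.7 and 43 CPM with INK128 and at 2.56 and 46.5 CPM in controls, and like Ackr1 it was lowest in Control replicate 1. The part of the erythroid cells and of Cadm3 reads in the Ackr1 value was not tested.

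**Figure D4:**
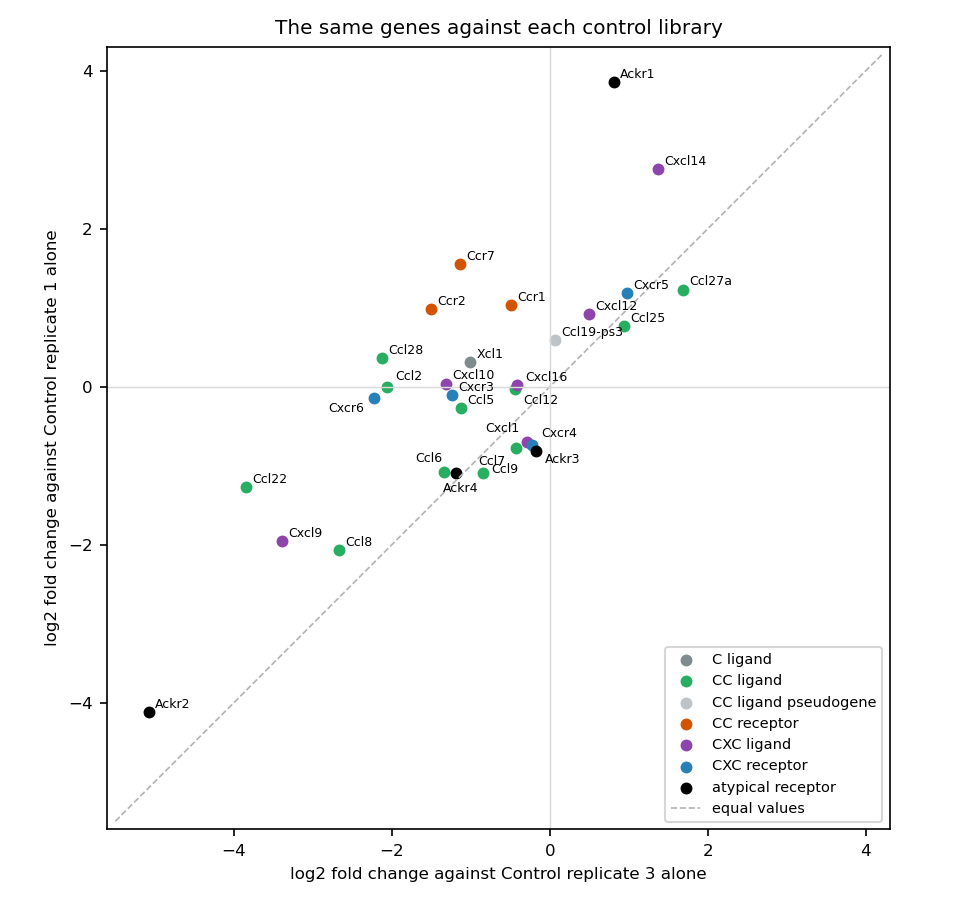
Log2 fold change of 30 detected genes when INK128 is compared with Control replicate 3 alone (x axis) and with Control replicate 1 alone (y axis), coloured by class. Both axes share the INK128 libraries, so the points are shown as a description, and genes above the dashed line of equal values are those with more reads in Control replicate 3 than in Control replicate 1, among them Ccr2 (-1.51 and 0.98).

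**Figure D5:**
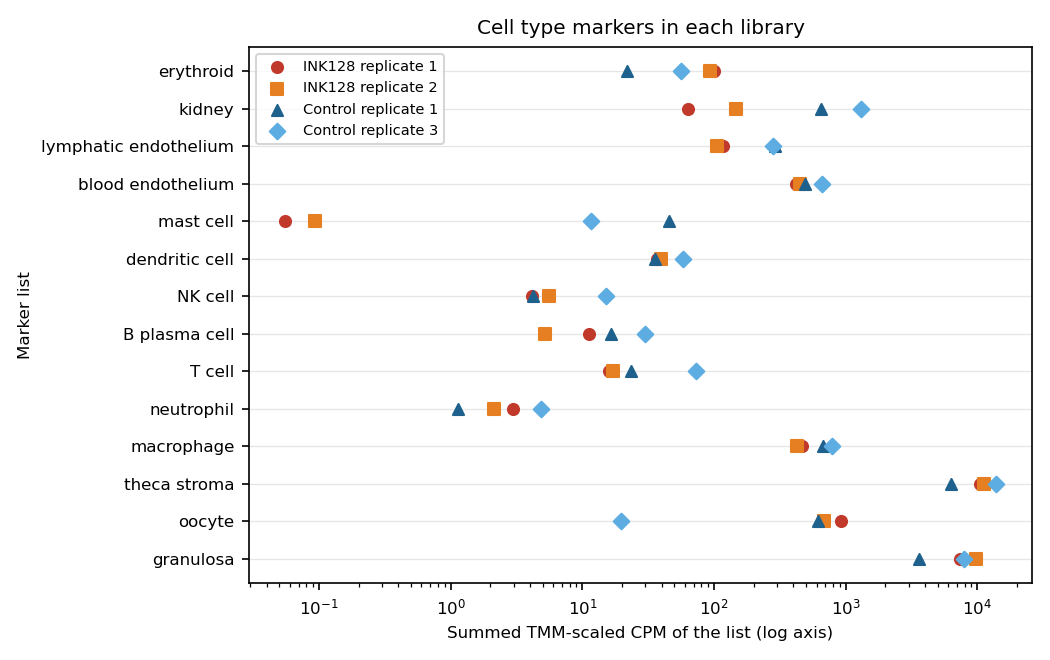
Summed TMM-scaled CPM (log axis) of each list of cell type markers in each of the 4 libraries. The INK128 symbols lie below both controls for kidney, blood and lymphatic endothelium, mast cells, macrophages, T cells, and B and plasma cells (for blood endothelium and B and plasma cells only with Kdr and Jchain, respectively, included), and the oocyte sum is lowest in Control replicate 3 (19.6 CPM).

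The 29 genes below the limit summed to 5.97 and 7.16 CPM with INK128 and to 7.99 and 12.4 CPM in controls. Ccl26 and Cxcr1 had no count in any library, and 8 others had none in both INK128 libraries but at least 1 in a control, while no gene had none in both controls alone. The share of all genes with either pattern was not counted, so these numbers are not read as a result about the group. Ccl21a, a lymphatic and lymph node ligand of Ccr7, had 14 and 15 counts in controls and none in the INK128 libraries. With a pooled floor of 3 counts over both INK128 libraries (0.0757 CPM), the pooled control level was 8.12 times that floor. The pooled floor is lower than the floor of each library, and the counting error of the controls is not included. For Control replicate 1 alone, the level was 8.03 times the pooled floor. Cxcl2, a neutrophil attractant, had 6 and 8 counts in controls, 3.92 times the pooled floor and 3.44 times for Control replicate 1 alone. Ccl21b had 5 and 30 counts, 9.8 times the pooled floor. This rested on Control replicate 3 and was 2.87 times for Control replicate 1 alone. Ccr6 had 2 and 18 counts and Ccr4 2 and 21, so that Control replicate 1 was below the floor and no fold is given for them. Ccl21a and Ccl21b are near-identical copies, so the split between them is uncertain. Ccr10, the receptor of Ccl27a and Ccl28, had 21 and 20 counts with INK128 and 7 and 14 counts in controls, in the direction of Ccl27a. Ccl1, Ccl20 and Ccl19-ps1 had 1 to 7 counts in a single control. The genes nearest to the limit were Ccl19-ps3 and Cxcl1 above it, at means of 1.05 and 1.07 CPM, and Cxcl13 and Ccl11 below it, at 0.976 and 0.866 CPM. These means were scaled to library totals, as the limit was. The remaining genes below the limit were Ccl3, Ccl4, Ccl17, Ccl19, Ccl24, Ccl27b, Ccr1l1, Ccr3, Ccr8, Ccr9, Cxcl3, Cxcl5, Cxcl11, Cxcl15, Cxcl17 and Cxcr2.

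Genes that act downstream of chemokine receptors were read from a list of G protein subunits, arrestins, receptor kinases and effectors, of which 35 were tested. None passed edgeR's test. At an unadjusted p below 0.05, 12 were lower (34.3%, against 18.2% of all genes) and 1 higher (2.86%, against 15.5%). DESeq2 called 8 lower (22.9%, against 13.6%) and 0 higher (against 10.2%). Of the 35, 20 were lower in both INK128 libraries (57.1%, against 33% of all genes) and 4 higher (11.4%, against 33.1%), with a median log2 fold change of -0.83. Many of these genes are expressed by leukocytes, and the macrophage and T cell markers given above were also lower in both INK128 libraries for 10 of 13 and 6 of 9 genes. Their part in these values was not tested. Elmo1 and Dock2, which form a complex that activates Rac in migrating leukocytes, had log2 fold changes of -2.18 (edgeR adjusted p = 0.0523) and -2.16 (adjusted p = 0.0829). Against Control replicates 3 and 1 alone, Elmo1 had -1.72 and -2.52 and Dock2 had -2.71 and -1.24. Elmo1 was measured at 11.7 and 15.9 CPM with INK128 and at 79.6 and 45.6 CPM in controls. Dock2 was measured at 4.05 and 3.55 CPM with INK128 and at 8.99 and 24.9 CPM in controls. The tyrosine kinase Ptk2b had -2.01 (-2.51 and -1.24 against Control replicates 3 and 1 alone) and the transcription factor Stat3 -1.23 (-0.98 and -1.44). Gnai2, the main inhibitory G protein subunit of leukocytes, had 0.10 with overlapping groups (0.28 and -0.06), and Arrb2, an arrestin, had 0.78 (1.08 and 0.53).

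Chemokine system genes with other symbols formed a list of 10, of which 9 were tested. edgeR called none, with 3 lower (33.3%, against 18.2% of all genes) and 2 higher (22.2%, against 15.5%) at an unadjusted p below 0.05. DESeq2 called Cx3cl1, Cmklr1 and Cd74 lower (33.3%, against 13.6%) and Rarres2 and Mif higher (22.2%, against 10.2%). Cd74, the invariant chain of antigen presentation that also binds Mif, was measured at 243 and 205 CPM with INK128 and at 509 and 712 CPM in controls (log2 fold change -1.45, edgeR adjusted p = 0.0523, and -1.67 and -1.18 against Control replicates 3 and 1 alone). Rarres2, which encodes the attractant chemerin, was measured at 318 and 350 CPM with INK128 and at 120 and 115 CPM in controls. Both controls were close together here, and the difference had an edgeR adjusted p of 0.0519. Cmklr1, the chemerin receptor, had -1.39 (-1.81 and -0.79 against Control replicates 3 and 1 alone), the opposite sign to Rarres2. Cxcl12 also differed in sign from Cxcr4 and Ackr3, and Ccl6 and Ccl9 from Ccr1 (0.08). Other pairs shared a sign, among them Ccl2, Ccl7 and Ccl12 with Ccr2, Cxcl9 and Cxcl10 with Cxcr3, and Cxcl16 with Cxcr6.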

How the data were processed

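RNA sequencing of 4 rOvary libraries was analysed from the table of raw counts per gene that the authors deposited. Per the labels and the methods, reads were trimmed with Trimmomatic, aligned to mm10 with HISAT2 and counted with featureCounts (versions not given in the sources used here), on an annotation called RefGene. The library kit does not mark strand. Groups were taken from the labels. Depth was 19130209 to 23029089 counts.

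Genes with a mean CPM above 1 on library totals (17631) were fitted in R 4.3.3 with edgeR 4.0.16 (quasi-likelihood test, TMM, INK128 against Control, no covariate, 2 residual degrees of freedom, common dispersion 0.15). P-values were adjusted by Benjamini-Hochberg over all genes, and a call needed a change of more than 1.5-fold at an adjusted p under 0.05. Alternatives were DESeq2 1.42.0, limma voom 3.58.1, the legacy quasi-likelihood fit, other size factors, other filters, exon length offsets (lowess span 0.3 in each library), other call limits and leaving out each library. The fits were tested on simulated data.

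Replicates were compared on log2 CPM with a pseudocount of 0.5. Positions and exon lengths were taken from GENCODE M21 (GRCm38), which matched 53447 of 54021 symbols. Promoters were taken from RefSeq. Clusters join members up to 1 Mb apart. Genes, gene lists and tests were chosen with earlier results of these data known. Of the detected genes, 30 were named and 1 is not reported here and is left out of the plots by gene, although it is counted among the 31. The rule gave values in each library for called genes, the 8 with the highest mean and, in each direction, the 6 with the largest fold change among genes whose groups did not overlap. Values of further genes (Ccl2, Ccr2 and genes of the lists) were chosen after they were seen.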

Additional observations from a re-analysis of the deposited data

How the results depend on the processing

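No paired analysis was possible because the groups share only replicate number 1. With edgeR, 0 of the 31 genes were called in either direction. DESeq2 called 6 lower and 3 higher, the adjusted p limit of 0.1 gave 5 lower and 3 higher, and library totals and the filter of CPM above 1 in at least 2 libraries each called 1 lower (Ackr2). Leaving out a library gave 0 to 14 lower and 0 to 6 higher: without Control replicate 1, 14 lower and 2 higher (24% and 22.1% of all genes), without Control replicate 3, 9 and 6 (22.3% and 19.8%), and without either INK128 replicate 0 and 0. With 1 library left in a group, that library is assumed to vary like the other group. The genes lower in both INK128 libraries numbered 4 of 9 tested at a mean CPM above 10 (34% of all genes) and those higher 2 (34.5%). With a library left out, when separation is easier for every gene, 14 to 24 were lower (38.8 to 44.6% of all genes) and 6 to 11 higher (37.6 to 45.2%). Without Control replicate 1 they were 24 and 6 (44.6% and 45.2%) and without Control replicate 3, 14 and 11 (44.6% and 44.4%). The median log2 fold change was -0.03 without Control replicate 3 and -1.01 to -0.03 over all libraries left out, and -0.97 with exon length offsets. Library totals moved the median of all genes to -0.21, so changes under that scaling are relative to it.

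Downstream receptor genes called lower (0 with edgeR) numbered 8 with DESeq2, 6 at an adjusted p of 0.1, 1 each with library totals, with mean CPM above 10 and with CPM above 1 in at least 2 libraries, and 0 to 20 with a library left out, with 0 to 2 higher. The shares of all genes called lower were 13.6%, 12%, 2.64%, 3.72% and 3.08% under those settings in turn, and 24% and 22.3% without Control replicates 1 and 3, and the same shares apply to the next list. Chemokine system genes with other symbols numbered 3 lower and 2 higher with DESeq2, 1 and 2 at an adjusted p of 0.1, 1 and 1 with library totals and with each of those filters, and 0 to 6 lower and 0 to 3 higher with a library left out. The shares of all genes called higher were 10.2% with DESeq2, 10.4% at an adjusted p of 0.1, 0.845% with library totals, 3.69% and 2.54% with the filters, and 22.1% and 19.8% without Control replicates 1 and 3.

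The sign was the same in every alternative for 21 of the 31 genes. Of the others, Ccr1 (0.08) was -0.09 with library totals and -0.17 with exon length offsets, Ccl19-ps3 (0.30) was -0.11 with exon length offsets and Ccr7 (-0.36) was 0.16 with limma voom. With a library left out, log2 fold changes ran from -0.63 to 0.05 for Ccl12, -0.32 to 0.69 for Ccl19-ps3, -2.06 to 0.00 for Ccl2, -2.13 to 0.36 for Ccl28, -0.49 to 1.03 for Ccr1, -1.51 to 0.98 for Ccr2, -1.14 to 1.55 for Ccr7, -1.32 to 0.04 for Cxcl10, -0.42 to 0.02 for Cxcl16 and -1.01 to 0.31 for Xcl1. The causes were not tested.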

Other observations

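Mast cell markers, on a list of 5 genes, summed to 0.0548 and 0.0935 CPM in the INK128 libraries and to 45.2 and 11.7 CPM in the controls. Neutrophil markers summed to 2.96 and 2.15 CPM with INK128 and to 1.13 and 4.89 CPM in controls. Dendritic cell markers summed to 37 and 39.8 CPM with INK128 and to 35.4 and 58.3 CPM in controls.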
